A study of Mus musculus with 2 samples.

Results

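The mitochondrial respiratory chain genes encode the protein subunits of the 5 enzyme complexes that carry out oxidative phosphorylation. They were chosen by symbol: a gene was a member if its symbol in the platform annotation began with Ndufa, Ndufb, Ndufc, Ndufs or Ndufv and a number, was Sdha, Sdhb, Sdhc or Sdhd, or began with Uqcr, with Cox4 to Cox8, or with Atp5. Only probe sets that carry exactly 1 symbol were used, and where a gene had several, the one brightest on average over both arrays (in log2) stood for it. This gave 81 of the 18193 genes on the array. The symbol rule does not use the measured difference between the genotypes.

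RNA was measured in ovaries of C57BL/6 mice aged 24 to 28 days, either wild type or PR knockout, that is, lacking the progesterone receptor encoded by Pgr. All of the mice had been given 5 IU of PMSG, a gonadotropin that drives follicle growth, and after 48 h 5 IU of hCG, which triggers ovulation, and ovaries were taken 11 h after hCG. Each genotype was read on 1 Affymetrix Mouse Genome array, so every value is a single measurement, no difference could be tested against the spread between animals, and no p-value is given. The number of animals behind each RNA sample and the disrupted part of Pgr are not given in the sources used here.

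Values are MAS5 signals, which are linear intensities per probe set that had been scaled to the same trimmed mean of 150 on both arrays. Each array's median signal, with control probe sets left out, served as its floor (36.2 for the wild type, 38.0 for the knockout). A gene that reached the floor is called detected on that array, and one detected on at least 1 array is called measured (11316 genes). Pgr gave no check of the labels, since its brightest probe set read 36.5 (wild type) and 42.8 (knockout), close to the floors. The 3′ over 5′ signal ratio, a measure of RNA integrity, was 1.29 and 1.30 for Actb and 0.866 and 0.830 for Gapdh in the wild type and the knockout. Ovarian markers were present on both arrays: all 5 granulosa cell markers and all 6 oocyte markers with a probe set were above the floor. In whole ovaries, a change in the number of cells of a type cannot be told apart from a change in the RNA of each cell.

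The respiratory chain sits in the inner mitochondrial membrane. Complex I takes electrons from NADH and complex II from succinate, coenzyme Q carries them to complex III, and cytochrome c carries them on to complex IV, which reduces oxygen. The proton gradient that this builds drives complex V, the ATP synthase. In the ovary, mitochondria also hold the first step of steroid hormone synthesis, in which cholesterol is cut to pregnenolone by an enzyme that takes its electrons from NADPH. Most subunits are encoded in the nucleus and a few in mitochondrial DNA, and the genes described here are nuclear. The nuclear respiratory factor NRF1 and the ETS factor GABP are known regulators of many of them.

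What the members share in sequence was looked for in their promoters, the window from 250 bases before to 50 bases after the transcription start (RefSeq, GRCm38.p6), in which 66 of the 81 members had an entry. The NRF1 core was searched as the 10 letters set in capitals in the Cox6a1, Atp5k and Atp5g2 lines that follow, which read the same on both strands. It was also searched on both strands in a relaxed form, with the fifth base free. The full core stood in the promoters of 4 of 66 members (6.06%), against 1.07% of all genes in the table and 2.38% of the measured genes. The relaxed core, which includes every full core, stood in 15 members (22.7%), against 5.19% of all genes and 11.9% of the measured genes. On both strands, the ETS core CCGGAAG stood in 17 members (25.8%), against 9.93% of all genes and 20.3% of the measured genes. The TATA box, as TATAAA, stood in 8 members (12.1%), against 15.7% of all genes and 8.73% of the measured genes. On the gene's own strand alone, members held the ETS core (7.58% against 11.4%) and the TATA box (4.55% against 5.29%) in a smaller share than the measured genes. These are matches of letters and say nothing about binding. Member promoters had a median GC content of 58.3%, against 52.7% over all promoters in the table, and the NRF1 and ETS cores are themselves rich in G and C.

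The 3 members whose full NRF1 core lay before the start are shown as examples of a letter pattern that the choice by symbol did not use. Each line gives 60 bases on the gene's own strand, 5′ to 3′, with the core in capitals. The Cox6a1 stretch lies on chr5:115349086-115349145, the Atp5k stretch on chr5:108434415-108434474 and the Atp5g2 stretch on chr15:102671055-102671114, all on the minus strand.
Cox6a1: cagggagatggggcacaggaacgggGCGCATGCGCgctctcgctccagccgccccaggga
Atp5k: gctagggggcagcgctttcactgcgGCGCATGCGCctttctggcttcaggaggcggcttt
Atp5g2: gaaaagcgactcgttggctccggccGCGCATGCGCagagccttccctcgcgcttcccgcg

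The core begins 162 bases before the start in Cox6a1, 50 in Atp5k and 42 in Atp5g2. The fourth match, in Uqcrc1, begins at base 31 after the start. The 120 bases before the start are shown next for Cox6b2 and Ndufb1, and for Cox6b1, the widely expressed partner of Cox6b2. Cox6b2 and Ndufb1 were at least 1.5-fold apart between the genotypes and detected on both arrays, as was Ndufa4l2, which is not shown. The printed stretches lie on chr7:4753095-4753214 (Cox6b2), chr7:30626115-30626234 (Cox6b1) and chr12:101975739-101975858 (Ndufb1), all on the minus strand.
Cox6b1: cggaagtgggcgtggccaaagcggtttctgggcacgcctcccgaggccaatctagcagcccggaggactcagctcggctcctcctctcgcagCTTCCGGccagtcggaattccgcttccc
Cox6b2: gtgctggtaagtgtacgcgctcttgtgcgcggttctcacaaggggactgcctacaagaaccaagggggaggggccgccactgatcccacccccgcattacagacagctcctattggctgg
Ndufb1: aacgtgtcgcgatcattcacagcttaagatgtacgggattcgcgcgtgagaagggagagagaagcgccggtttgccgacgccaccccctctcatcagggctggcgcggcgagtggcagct

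The capitals in Cox6b1 mark an ETS core on the opposite strand. None of the motifs searched stood in the printed stretches of Cox6b2 and Ndufb1, which says only that these letters are not there.

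Respiratory chain genes read nearly alike in the 2 samples. Of the 81 members, 76 were detected on both arrays, 1 (Cox6a2) on the wild-type array only, and 4 on neither (Cox4i2, Cox7b2, Cox8b and Ndufb4). Of the 77 measured members, 67 (87.0%) differed by less than 0.32 on the log2 scale, against 67.9% of all measured genes. Past that limit, 4 members were higher and 6 lower in the knockout, against 20.5% and 11.7% of all measured genes. In the knockout, 1 member was at least 1.5-fold higher and 3 at least 1.5-fold lower, against 6.54% and 4.75% of all measured genes, and 0 members were 2-fold higher or 2-fold lower, against 1.15% and 1.72%. Differences are given as the log2 signal of the knockout less that of the wild type, and their median was -0.02 over the 77 measured members, with quartiles of -0.14 and 0.06. It was 0.06 over all measured genes, with quartiles of -0.15 and 0.27.

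Direction was split, with 33 members higher and 44 lower in the knockout, where 57.7% of all measured genes were higher and 42.2% lower. This split moved with the scaling of the arrays: median centring left 22 higher and 55 lower, quantile normalization 50 and 27, and subtraction of a loess trend 49 and 28. Differences between the arrays also moved with signal. Of the 77 measured members, 63 lay in the top decile of measured genes by mean signal, and in that decile the median over all genes was -0.05, with 41.3% higher. In the 70 members with both signals at 500 or more, the median was -0.01, the values ran from -0.36 to 0.46, and 0 were 1.5-fold apart. The 2478 other genes with both signals at 500 or more had a median of -0.02, and 35 of them were at least 1.5-fold higher and 90 at least 1.5-fold lower. Of these other genes, 82.5% differed by less than 0.32 on the log2 scale, against 92.9% of the 70 members. Of the 6 members on both arrays with signals under 500, all between 47.2 and 164 (Ndufb1, Ndufa4l2, Cox6b2, Cox7a1, Cox7c and Cox8c), 3 were at least 1.5-fold apart. These 6 lay in deciles 2 to 4, counted from the lowest signal. At least 1.5-fold higher and lower were 176 and 91 of 1132 genes in decile 2. In decile 3 these counts were 136 and 68 of 1131, and in decile 4 they were 83 and 37 of 1132. At low signals all genes scattered more: 51.6% of the genes in decile 2 differed by less than 0.32 on the log2 scale, against 80.7% in decile 10.

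**Figure D1:**
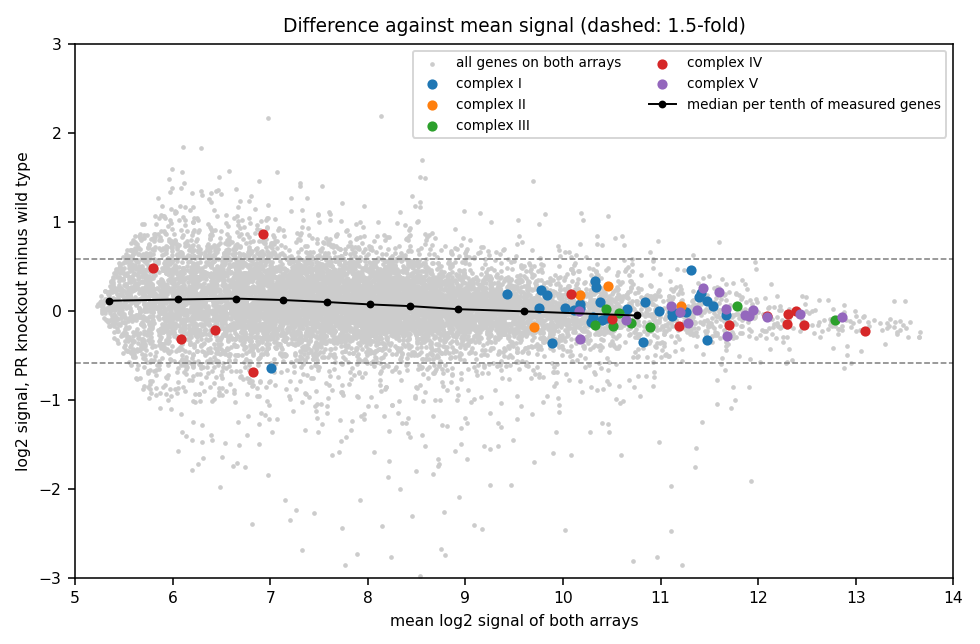
Log2 difference in signal (knockout minus wild type) against the mean log2 signal of both arrays, for all genes detected on both arrays (grey) and the 76 respiratory chain genes among them (coloured by complex); the black line joins the medians of the deciles of the measured genes and the dashed lines mark 1.5-fold. Most of the coloured points sit at the right in a narrow band around 0, the 6 on the left with signals under 500 spread more widely, and 5 grey genes lie beyond the axis limits of -3 and 3.

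The arrays hold 1 kind of spread, between probe sets that read one gene. In 41 members 2 or more probe sets were detected on both arrays, and their log2 differences had a within-gene SD of 0.21, or 1.15-fold (0.25, or 1.19-fold, over 4771 genes). All probe sets had the same sign in 18 of these members, 8 lower and 10 higher, and signs were mixed in the other 23. The 64 probe sets that did not represent their gene gave a median of 0.02, with 34 higher and 30 lower in the knockout, and 37 shared the sign of the representative. Most differences among the members were thus no larger than the spread between probe sets, which leaves out the spread between animals.

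**Figure D2:**
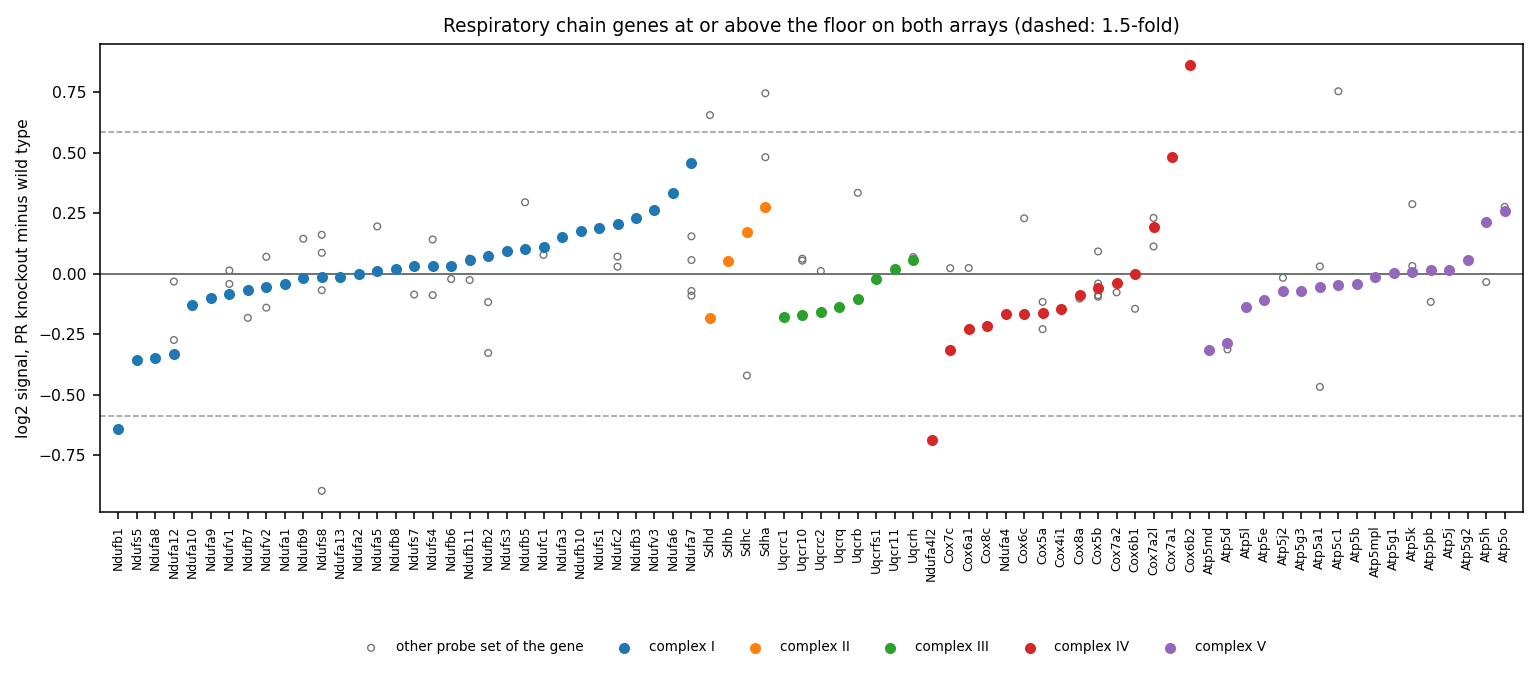
Log2 difference in signal (knockout minus wild type) of the 76 genes detected on both arrays, ordered by value within each complex; filled points are the representative probe set, open points other probe sets of the same gene, and dashed lines mark 1.5-fold. Ndufb1, Ndufa4l2 and Cox6b2 are the filled points past the dashed lines, and open points of Ndufs8, Sdhd, Sdha and Atp5c1 also pass them.

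Complex I, the NADH dehydrogenase, had 33 members, of which 32 were measured, 18 higher and 14 lower in the knockout, with a median of 0.03. Its core subunits carry the flavin and the iron-sulphur clusters along which electrons pass, and 6 of them were measured. Ndufv1, which binds NADH, read 1438 and 1358 (wild type first, here and in every pair that follows). Ndufv2 read 2263 and 2182, Ndufs3 1290 and 1376, and Ndufs7 1028 and 1051. Ndufs1 read 642 and 733, which at 1.14-fold was the widest gap of the core. The core subunits thus lay on both sides of equality, 3 higher and 3 lower. Ndufs8 read 2235 and 2212 by its representative probe set, but its 5 probe sets on both arrays ran from -0.90 to 0.16 on the log2 scale. The lowest of these, at 1401 and 753, was the 1 probe set of a member with signals above 500 that differed by 1.5-fold.

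Accessory subunits surround this core and are needed for its assembly or stability, and 26 were measured, 15 higher and 11 lower. Ndufb1, a small subunit of the membrane arm, read 161 in wild-type and 103 in knockout ovaries, 1.56-fold lower, by its single probe set. Ndufs5, of the same arm, read 1070.2 and 836 (-0.36 on the log2 scale). A further probe set that lists Ndufs5 together with its pseudogene read 1315 and 1507, in the opposite direction. Ndufa8 read 2046 and 1606, 1.27-fold lower, and Ndufa12, of the matrix arm, 3189 and 2533, with its 4 probe sets all lower (from -0.33 to -0.03). These were the accessory subunits with the lowest differences, and Ndufa12 is the one of them with several probe sets of its own. Its probe set at -0.03 was the one without an _s_at or _x_at suffix.

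On the other side, Ndufa7 read 2168 and 2974, 1.37-fold higher. Its 5 probe sets ran from -0.09 to 0.46 on the log2 scale, so that its representative was the highest of them. Ndufa6 read 1149 and 1447 (1.26-fold higher) and Ndufv3 1178 and 1414 (1.20-fold higher), each by 1 probe set. Both Ndufc subunits were higher, Ndufc1 at 2750.4 and 2971 and Ndufc2 at 2542 and 2930.3, and all of their measured probe sets shared that sign. Ndufa1 read 3304 and 3204 and Ndufb11 2914 and 3030 (1.03-fold and 1.04-fold apart). The Ndufb subunits, which build the membrane arm, were higher in 7 of 10 and the Ndufa subunits in 4 of 11. Ndufb4 was under the floor by its own probe set, at 1.09 and 4.55, while the 2 probe sets that list it with Ndufb4b and Ndufb4c read 1545 and 1719.7, and 1130.4 and 1266. Ndufs6 and Ndufa11, listed only beside a close copy, read 899.6 and 1096, and 1309.9 and 1193.

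Complex II, succinate dehydrogenase, is shared with the tricarboxylic acid cycle, and all 4 of its members were measured, with a median of 0.11. Sdha, the flavoprotein that oxidizes succinate, read 1278 and 1547, 1.21-fold higher. Its 3 probe sets on both arrays were all higher, from 0.28 to 0.74 on the log2 scale. The mean over all 4 of its probe sets, 1 of them under the floor on both arrays, was -0.01. The iron-sulphur subunit gene Sdhb read 2325 and 2413. The membrane anchors went opposite ways and were each split by probe set: Sdhc read 1089 and 1228 (probe sets from -0.42 to 0.17), and Sdhd 886 and 782 (from -0.18 to 0.65). Sdha was the 1 gene of the complex whose probe sets were several and all on 1 side.

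Complex III passes electrons from coenzyme Q to cytochrome c. Its 8 members were all measured, 2 higher and 6 lower in the knockout, with a median of -0.12 and values from -0.18 to 0.06. The core proteins Uqcrc1, at 2027 and 1791, and Uqcrc2, at 1356 and 1214, were 1.13-fold and 1.12-fold lower. The other probe set of Uqcrc2 was 0.01 higher on the log2 scale. The small subunit gene Uqcr10 read 1550.2 and 1376, 1.13-fold lower, but its other probe sets were 0.06 and 0.05 higher on the log2 scale. Uqcrfs1, the Rieske iron-sulphur protein, read 1531 and 1509.8, a gap of 1.01-fold. Uqcrb read 7333 and 6832 by its representative, while its other probe set was 0.33 higher on the log2 scale. Uqcrh, the hinge protein near cytochrome c, was 1.04-fold higher at 3460.2 and 3603, with both probe sets higher, and Uqcr11 was 1.02-fold higher at 1381 and 1402. The lower reading of the complex as a group depended on the scaling and on the choice of probe set. With quantile normalization or a loess trend subtracted, 4 members were higher and 4 lower, with medians of -0.02 and -0.04. The median was 0.00 with the mean over all probe sets, some of them under the floor. Without the _s_at, _x_at and _a_at probe sets it was 0.06 over 5 members, with Uqcrc1 and Uqcrc2 not among them.

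Complex IV, cytochrome c oxidase, had 19 members and the lowest median of the 5 complexes, -0.15 over 16 measured, with 3 higher and 13 lower. All 10 widely expressed subunits were lower in the knockout. Lower were also 42.2% of all measured genes and 664 of 1132 genes in the top decile by signal. The 9 with both signals at 500 or more were lower by 0.00 to 0.23 on the log2 scale, and Cox7c, at low signals, by 0.32. With quantile normalization or a loess trend subtracted, 7 of the 10 were lower, and with the mean over probe sets likewise 7. Cox6a1 read 9452 and 8072, 1.17-fold lower, but its other probe set was 0.02 higher on the log2 scale. Cox6c read 6020.04 and 5373, again with the other probe set higher (0.23). Cox4i1, an early subunit in assembly that binds ATP, read 5272 and 4766, 1.11-fold lower. Cox5a read 3526 and 3148, with all 3 of its probe sets lower (from -0.23 to -0.12). Cox5b read 4445 and 4263, Cox6b1 5382 and 5373, Cox7a2 5124 and 4989, and Cox8a 1492 and 1403. Ndufa4, first assigned to complex I and now known as a subunit of complex IV, read 2471 and 2204, 1.12-fold lower. Cox7c was represented by a probe set at only 75.9 and 61.0. Cox7b was not analysed here.

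Several complex IV subunits have second genes with narrower expression, which tell muscle, lung and testis forms of the enzyme apart. Their signals lay between 0.434 and 164 on both arrays. Cox6b2, a testis form of a subunit at the cytochrome c side, read 90.5 and 164, 1.82-fold higher by its single probe set, the widest gap among the members detected on both arrays. Ndufa4l2, a paralogue of Ndufa4 known to be induced by low oxygen, read 144 and 89.4, 1.61-fold lower, also by a single probe set. The muscle form Cox6a2 read 58.2 and 14.4, the second of these under the floor, which makes it at least 1.53-fold lower in the knockout. It was counted as measured through the wild type alone, so that it had to differ in that direction. The muscle form Cox7a1 read 47.2 and 65.9, 1.40-fold higher, and the testis form Cox8c 93.2 and 80.3. Cox4i2, the lung and low-oxygen form, read 18.6 and 28.8, the muscle form Cox8b 15.8 and 3.54, and the testis form Cox7b2 8.28 and 0.434, all under the floor on both arrays, so their order between genotypes is not readable. With the 70th percentile as the floor, 0 of 73 members were 1.5-fold apart in either direction, against 265 higher and 322 lower of 8160 genes.

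Marker genes of the tissues that use these forms were read beside them. Of 9 skeletal muscle markers, 7 were under the floor on both arrays, among them Ckm (22.5 and 17.0) and Mylpf (25.1 and 24.1). Their summed signal was 279 in wild-type and 148 in knockout ovaries, with Actn3 at 139.6 and 42.3 and Acta1 at 54.4 and 41.8. All 4 testis germ cell markers were under the floor on both arrays, with a summed signal of 23.6 and 29.1, and 3 of 4 brown fat markers were under it as well. The part of such cells in the muscle form values was not tested. Cox7a2l, a paralogue of Cox7a2, read 1013 and 1159, 1.14-fold higher, and its 3 probe sets were all higher (from 0.11 to 0.23 on the log2 scale).

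**Figure D3:**
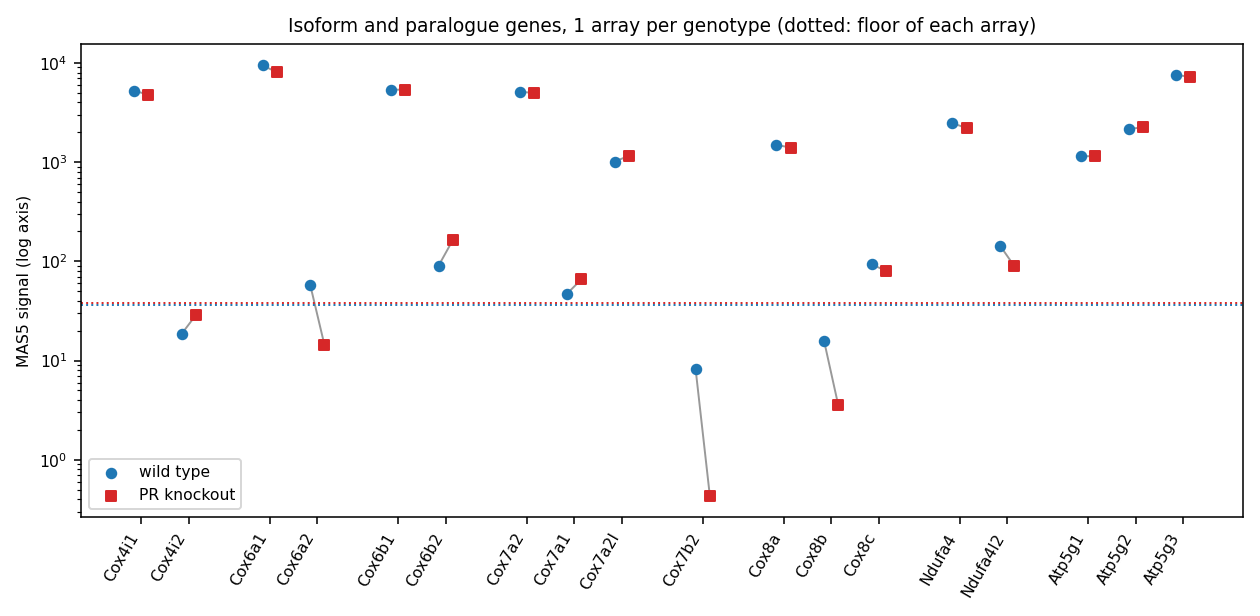
MAS5 signal on a log axis in the wild type (circles) and the PR knockout (squares) for complex IV genes with isoforms or paralogues and for the 3 genes of the ATP synthase c ring, with 1 array per genotype; dotted lines mark the floor of each array, 36.2 and 38.0. The widely expressed genes and Cox7a2l lie at 1013 or more in both genotypes, and the muscle, lung and testis forms lie between 0.434 and 164.

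Complex V, the ATP synthase, had 17 members, all measured, 7 higher and 10 lower in the knockout, with a median of -0.04 and values from -0.32 to 0.26. The 5 subunits of its catalytic F1 part were all lower by the representative probe set. In the top decile by signal, 664 of 1132 genes were lower. Atp5b, the catalytic beta subunit, read 5578 and 5425, and Atp5a1, the alpha subunit, 3922 and 3773 (1.03-fold and 1.04-fold lower). The central stalk genes Atp5c1, at 3797 and 3674, and Atp5e, at 1661 and 1542, were 1.03-fold and 1.08-fold lower. Atp5d, also of the stalk, read 3640.2 and 2983, 1.22-fold lower, with both probe sets lower (-0.31 and -0.29 on the log2 scale). With quantile normalization or a loess trend subtracted, 3 of the 5 were higher, so the common sign of the F1 genes depended on the scaling. A second probe set of Atp5c1, at 57.7 and 97.3, differed the other way.

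The membrane part of the enzyme holds a ring of identical c subunits, which 3 genes encode with the same mature protein. Atp5g1 read 1147 and 1149, Atp5g2 2157 and 2245, and Atp5g3 7591 and 7232, each within 1.05-fold of equality. The peripheral stalk, which holds the head still, gave the 2 highest differences of the complex. Atp5o, the stalk's link to the head, read 2532 and 3027, 1.20-fold higher, with both probe sets higher (0.26 and 0.28 on the log2 scale). Atp5h, the d subunit, read 2879 and 3334, 1.16-fold higher, but its other probe set was 0.03 lower on the log2 scale. The other stalk genes lay near equality, Atp5pb at 3931 and 3971 and Atp5j at 3231 and 3269. Among small subunits at the dimer interface, Atp5md read 1287 and 1034 (-0.32 on the log2 scale), and Atp5l 2614 and 2377, 1.10-fold lower. Atp5k read 2648 and 2659 (0.01 on the log2 scale). Differences within this enzyme were thus small on both sides of equality.

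Other genes of the same organelle were read by lists, with the members left out. Over all measured genes, 57.7% were higher in the knockout, and 6.54% and 4.75% were at least 1.5-fold higher and lower. Subunits and electron carriers that the symbol rule passes over gave a median of 0.04 over 7 measured, 5 higher and 2 lower, and 0 were 1.5-fold apart. Median centring turned this split to 2 higher and 5 lower, with a median of -0.02. Cyc1, the cytochrome subunit of complex III, read 2849 and 2423 (-0.23 on the log2 scale), Cycs, cytochrome c itself, 3037 and 2875 (-0.08), and Atpif1, the inhibitor of the ATP synthase, 1787 and 1982 (0.15). Tricarboxylic acid cycle genes, which supply NADH and succinate, had a median of 0.06 over 17, with 10 higher, 7 lower and 0 at 1.5-fold. Dlst (-0.39) and Pdhx (-0.30) lay lowest and Ogdh (0.35) and Suclg2 (0.34) highest. Mitochondrial ribosomal protein genes, whose products translate the subunits of mitochondrial origin, had a median of 0.01 over 76, with 41 higher, 35 lower and 0 at 1.5-fold, and median centring left 29 higher and 47 lower. Mrpl3 (-0.36) and Mrps18b (-0.32) lay lowest, Mrps21 (0.48) and Mrpl33 (0.45) highest.

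Assembly factors, which build the complexes but are not part of them, were higher in the knockout in 34 of 43 measured, with a median of 0.15, where 57.7% of all measured genes were higher. The share of all genes that were higher moved with signal, from 64.0% in decile 4 to 41.3% in decile 10. With a loess trend subtracted, 29 assembly factors were higher and 14 lower, where 49.5% of all measured genes were higher. At least 1.5-fold higher were 3 of the 43, against 6.54% of all measured genes. These were Nubpl, which inserts iron-sulphur clusters into complex I, at 102 and 192 (1.88-fold), Bcs1l, which inserts the Rieske protein into complex III, at 121 and 183 (1.51-fold), and Tmem126b, a complex I assembly factor, at 34.7, under the floor, and 61.7 (at least 1.70-fold). Tmem126b was counted as measured through the knockout alone, so that it had to come out higher. Sco2 (-0.42) and Foxred1 (-0.39) lay lowest, and both read between 92.9 and 154. Over all measured genes the median was 0.06, and the median of the list ran from 0.10 to 0.21 over the alternative settings.

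Coenzyme Q synthesis genes had a median of 0.04 over 12, 6 higher and 6 lower, and the median was -0.07 with a loess trend subtracted. Coq10b, a coenzyme Q chaperone, read 708 and 383, 1.85-fold lower, and Coq8b 119.9 and 65.9, 1.82-fold lower, while its relative Coq8a read 135 and 209.6, 1.55-fold higher. These 2 kinase-like genes thus differed in opposite directions. Import and carrier genes had a median of -0.16 over 22, 6 higher and 16 lower, where 57.7% of all measured genes were higher and 42.2% lower. Signals of the list ran from 72.8 to 8020. The share of all genes that were higher was 62.4% in decile 2, 53.4% in decile 8 and 41.3% in decile 10. The median of the list was -0.08 with quantile normalization and -0.11 with a loess trend subtracted. Tomm40, the channel of the outer membrane, read 596 and 363, 1.64-fold lower. It was the 1 gene of the 22 past 1.5-fold, where 4.75% of all measured genes were at least 1.5-fold lower. Timm10 followed at -0.33, and Timm17b (0.41) and Timm9 (0.39) lay highest.

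**Figure D4:**
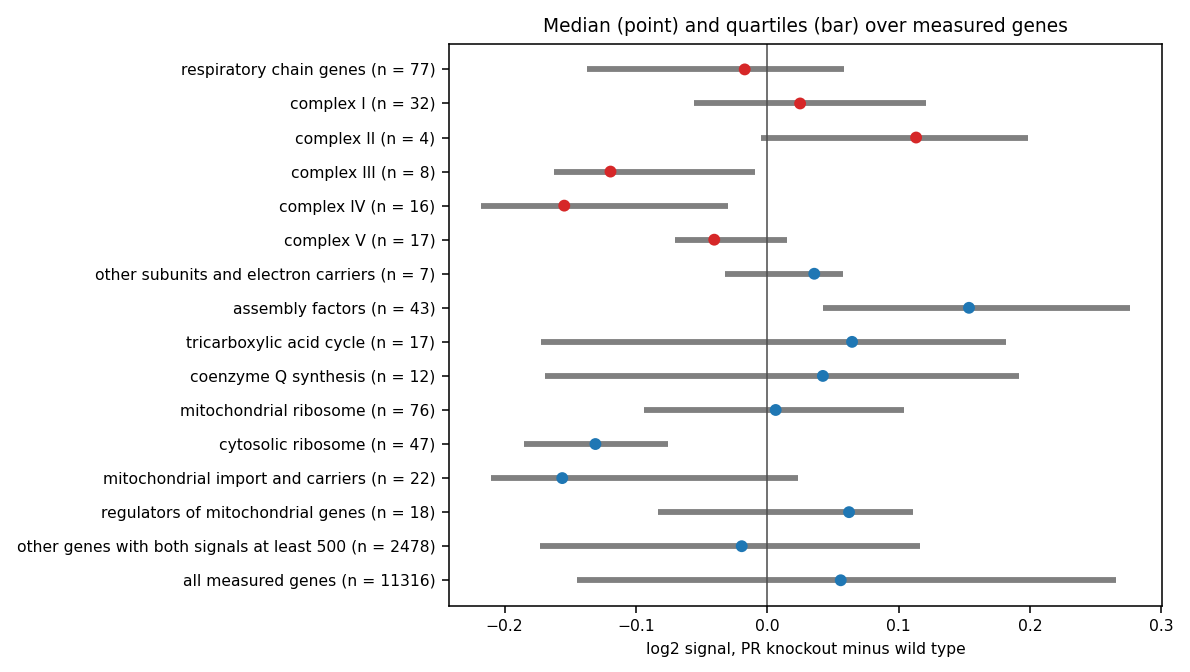
Median (point) and quartiles (bar) of the log2 difference in signal, knockout minus wild type, over the measured genes of the respiratory chain and its complexes (red) and of the other lists and all genes (blue), with the number of genes beside each name. All medians lie between -0.16 (mitochondrial import and carriers) and 0.15 (assembly factors).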

How the data were processed

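For each array, the deposited values are linear intensities of 45101 probe sets. They were made by the authors with the MAS5 method (Expression Console version 1, Affymetrix), per the submitters' processing notes. MAS5 subtracts a mismatch signal, which makes low signals noisy. The number of arrays limits the precision. Signals were taken to log2 as deposited (pandas 2.3.3, numpy 2.4.6). The 64 control probe sets were set aside, and 34945 of the others carried 1 symbol. Signals under the floor were set to it, so folds against them are bounds. All 81 member gene IDs were found in RefSeq with unchanged symbols. Calls are at 1.5-fold. The members, lists and sub-parts of the complexes were chosen with earlier results of these data known. Named genes were those past 1.5-fold, the 3 largest differences in each direction and the 2 brightest of each complex, all isoform pairs, and the 2 extremes of each list in each direction; other members were added with their values known. The planned comparison of isoform protein sequences was not run. The calculation was tested on simulated data. Alternatives covered scaling (median, quantile, loess with a lowess span of 0.3 in statsmodels 0.14.6), floor, offset, probe set choice and fold threshold.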

Additional observations from a re-analysis of the deposited data

How the results depend on the processing

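With 1 array per genotype no array could be left out. No paired analysis was possible because each genotype has 1 array. The median of the members ran from -0.07 to 0.06. The median of complex IV was below 0 throughout (-0.21 to -0.05), and that of complex II above it (0.02 to 0.18). The median of complex I ran from -0.03 to 0.08, of complex III from -0.18 to 0.06 and of complex V from -0.10 to 0.06. In place of 33 members higher and 44 lower, quantile normalization gave 50 and 27, and subtraction of a loess trend gave 28 lower. The count of members at least 1.5-fold higher was 0 of 73 with the 70th percentile floor, against 265 of 8160 genes. It was 3 of 81 with no floor, against 2720 of 18193 genes. With the _s_at, _x_at and _a_at probe sets left out it was 3 of 59, against 678 of 9747 genes. The count at least 1.5-fold lower was 0 with the 70th percentile floor (322 of 8160 genes) and 5 with no floor (2979 of 18193 genes). At 2-fold both counts were 0, and at a lower threshold of 0.32 on the log2 scale they were 4 and 6, against 20.5% and 11.7% of all measured genes. Of 77 single members, 17 changed sign with quantile normalization, 16 with the loess trend removed and 11 with median centring, as did 14 of 75 with the mean over probe sets and 10 of 59 with the _s_at, _x_at and _a_at probe sets left out. All genes at 1.5-fold split 740 higher to 538 lower, 583 to 645 after median centring, 566 to 613 after quantile normalization and 471 to 723 without the loess trend. Searched on 1 strand, the relaxed NRF1 core stood in 8 members (12.1%, against 7.11% of measured genes). The order turned for the ETS core, in 5 members (7.58% against 11.4%), and for the TATA box, in 3 (4.55% against 5.29%).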

Other observations

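Cytosolic ribosomal protein genes, which like the respiratory chain subunits are short and read at high signals, were lower in the knockout in 42 of 47 measured, with a median of -0.13 on the log2 scale and 0 at 1.5-fold. Of all measured genes 42.2% were lower, and in the top decile by signal 664 of 1132 were. At least 1.5-fold higher and lower were 6.54% and 4.75% of all measured genes. Rpl12 (-0.55) and Rps27 (-0.40) lay lowest, and Rpl39l (0.56) and Rps4l (0.18) highest. Unlike most of the list, these 4 had low signals, between 51.2 and 338 on both arrays, where the list reached 12562. Quantile normalization left 24 higher and 22 lower, with a median of 0.01.

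Regulators of mitochondrial genes had a median of 0.06 over 18 measured, 12 higher and 6 lower, where 57.7% of all measured genes were higher. Of the 18, 0 were 1.5-fold apart, against 6.54% of all measured genes higher and 4.75% lower by that much. With a loess trend subtracted the split was 8 higher and 10 lower, with a median of -0.01. Nrf1 read 166 and 153 and Gabpa 524 and 493 in the wild type and the knockout, Tfam, which packs and transcribes mitochondrial DNA, 331 and 341, and Esrra 78.4 and 81.7. Pprc1, a coactivator of the PGC-1 family, read 342 and 244 (-0.49 on the log2 scale), and Tfb2m -0.16 on that scale. The helicase gene Twnk read 187 and 275 (0.55), and Tfb1m 98.3 and 145 (0.56).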
